A study of Rattus norvegicus with 12 samples.

Results

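The genes described here were 10 imprinted genes that set cell and tissue growth: Igf2, Igf2r, Grb10, Mir675, Cdkn1c, Phlda2, Plagl1, Peg3, Ndn and Mest. They were found by gene symbol in a table of read counts, and each symbol had 1 row, so that they were 10 of 32545 genes. All 10 were among the 14399 genes with enough counts to be tested. They were chosen by their levels in these libraries, which were known when the list was drawn up. The levels and fold changes of the 10 genes are therefore a description, and no p-value is given for them.

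RNA was sequenced from cultured rat heart cells in 4 groups of 3 biological replicates. In the GS_diff2 group, GS cells were kept in CMM medium plus EGM2 solution, labelled cardiomyocyte/endothelial differentiation. In the GS_diff1 group, GS cells were kept in CMM medium alone, labelled cardiomyocyte differentiation. The GS group held undifferentiated GS cells, which are immortalized cells obtained from rat cardiac fibroblasts by viral overexpression of Sall4 and Gata4. The RCF group held the parental rat cardiac fibroblasts, labelled wild type and untreated, although the treatment protocol entered for them also names the virus. Strain, sex and age of the rats, the promoter of the viral genes, the time in each medium and whether GS cells were 1 clone are not stated in the labels. The labels do not say whether the GS cultures matched those in the media in age, so that time in culture and medium cannot be told apart.

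An imprinted gene is transcribed mainly from the chromosome inherited from 1 parent, under the control of DNA methylation set in the germ line. Many imprinted genes act on fetal growth: in the mouse, several that are read from the paternal copy promote it and several that are read from the maternal copy restrain it. Igf2 encodes a fetal growth factor, and Igf2r encodes the receptor that takes it up for breakdown in lysosomes. In the heart, Igf2 is known as a mitogen of the embryonic myocardium. In the mouse, the expressed copy is paternal for Igf2, Plagl1, Peg3, Ndn and Mest, and maternal for Igf2r, Grb10, Cdkn1c, Phlda2 and the H19 transcript that holds Mir675. The counts carry no information on the parental copy.

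Mir675 is the microRNA gene inside H19, the long noncoding RNA that lies next to Igf2. Its arms are shown because the gene was at 0 counts in every RCF library and differed 8.66-fold between the media. The sequences are those of RefSeq on build GRCr8, 5′ to 3′, with the seed (bases 2 to 8, which pair with target transcripts) in capitals. The 5p arm lies at chr1:207161800-207161821 and the 3p arm at chr1:207161766-207161786, both on the minus strand.
rno-miR-675-5p: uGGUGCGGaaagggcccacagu
rno-miR-675-3p: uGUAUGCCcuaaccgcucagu
None of the other mature rat microRNAs among the 724 in the RefSeq table had either seed. In the deposited table Mir675 spanned 84 bases, and total RNA was sequenced, so that reads counted for it can come from H19 itself. H19 was not found by symbol or other name among the counted genes, so that no level can be given for it.

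Of the 10 genes, 8 lie on rat chromosome 1 (build Rnor_6.0, as in the deposited table). Igf2 (ENSRNOG00000020369) spans chr1:215828102-215846911 on the minus strand, and Mir675 (ENSRNOG00000040350) spans chr1:215745981-215746064 on the same strand, 82.0 kb away. Cdkn1c (chr1:216661080-216663721) and Phlda2 (chr1:216702319-216703534), also on the minus strand, lie 814.2 and 855.4 kb from Igf2 and 38.6 kb from each other. Plagl1, Igf2r, Peg3 and Ndn lie elsewhere on chromosome 1. Grb10 lies on chromosome 14 and Mest on chromosome 4.

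Libraries held 16255682 to 23117864 counts. Levels are given as CPM (read counts scaled to library size with the trimmed mean of M-values), each group as its mean ± SD with n = 3. Sall4 was at 222 to 255 CPM in the GS_diff1 and GS libraries, at 67.5 to 72.4 CPM in the GS_diff2 libraries and at 0 counts in the RCF libraries. Gata4 was at 281 to 603 CPM in the 9 GS-derived libraries, against 203 to 209.8 CPM in the RCF libraries. Of 13 fibroblast markers, 11, 11, 12 and 13 reached 1 CPM in GS_diff2, GS_diff1, GS and RCF. In GS against RCF, 6 of the 13 rose and 5 fell at an adjusted p under 0.05 (edgeR's quasi-likelihood test). Over all genes 35.0% rose and 36.3% fell. From RCF to GS, Tcf21 went from 18.5 to 0.395 CPM and Dcn from 32.8 to 1.0 CPM. Pdgfra went from 97.4 to 688 CPM and Lum from 11.2 to 116 CPM. Cardiomyocyte markers summed to 58.3 to 64.2 CPM in GS_diff2, 102 to 110.1 in GS_diff1, 17.2 to 22.8 in GS and 15.8 to 17.1 in RCF, with Myl2 at 0 in every group. The GS_diff1 sum was mostly Mybpc3, at 95.6 CPM, and Tnnt2 was at 34.1 CPM in GS_diff2 and 7.67 CPM in GS_diff1. Endothelial markers summed to 26.4 to 38.6 CPM over all 12 libraries, with Emcn and Cldn5 at 0 in every group.

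In GS cells against RCF, 7 of the 10 genes were higher and 3 were lower. Mir675, Cdkn1c, Phlda2 and Plagl1, at under 1 CPM or without counts in RCF, were at 15.4 to 214 CPM in GS. Peg3, Grb10 and Igf2 were also higher, and Ndn, Mest and Igf2r were lower. The 3 libraries of each group did not overlap for any of the 10 genes. Across all tested genes, 74.2% had ranges that did not overlap and 71.3% passed an adjusted p of 0.05 in edgeR's quasi-likelihood test (35.0% higher, 36.3% lower). Since the same contrast was known when the list was drawn up, nothing is read from the count. The median log2 fold change of the 10 genes was 2.37, against −0.03 over all tested genes. Setting Mir675 and Cdkn1c at the values given for them below cannot move this median, as both stay above the middle values.

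**Figure D1:**
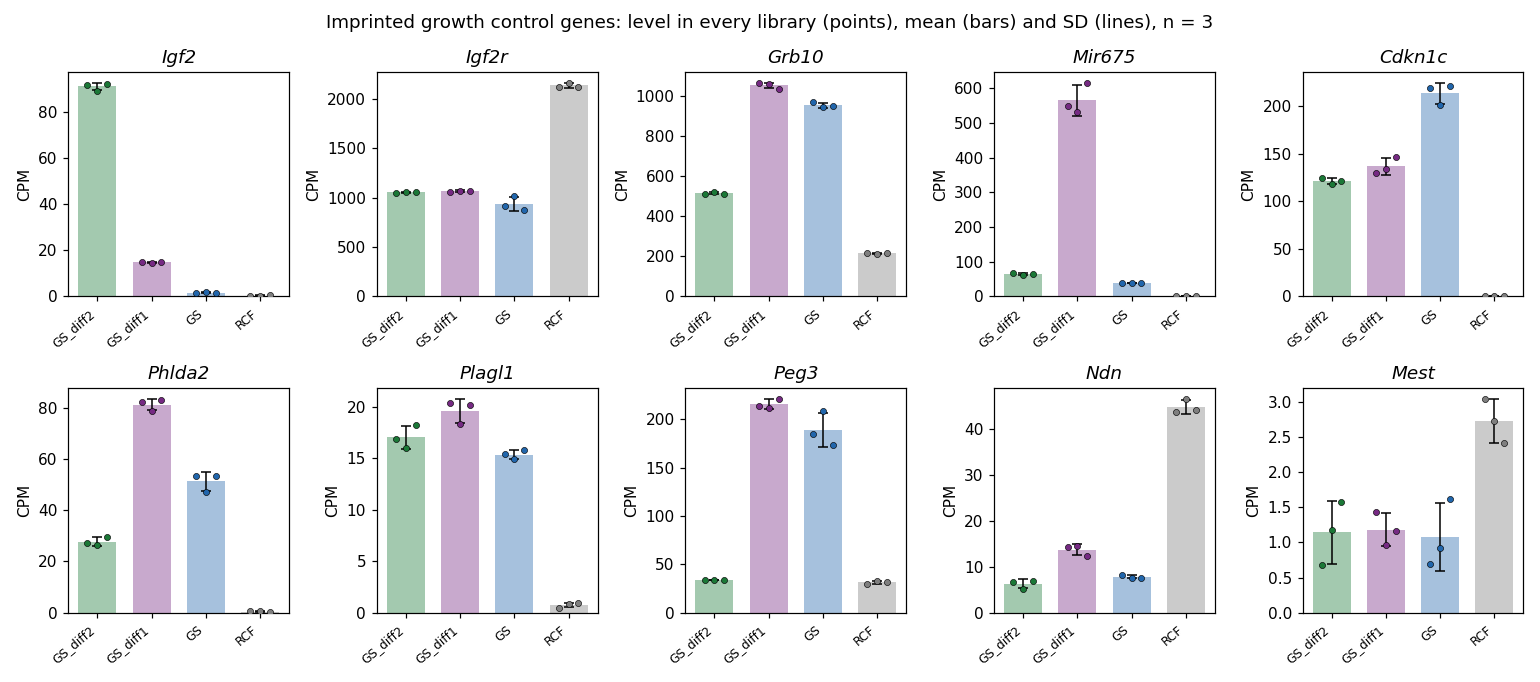
Level of each of the 10 imprinted genes in CPM (y axes, each starting at 0) in GS_diff2, GS_diff1, GS and RCF (x axis); points are the 3 libraries of a group, bars the mean and lines the SD. Igf2 is highest in GS_diff2 at 91.3 CPM, Mir675 in GS_diff1 at 565 CPM, Cdkn1c in GS at 214 CPM, and Igf2r, Ndn and Mest in RCF.

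The growth factor Igf2 was low in fibroblasts and in undifferentiated GS cells and higher after both media, most of all in GS_diff2. Its level was 92.1, 89.4 and 92.4 CPM in GS_diff2, 14.9, 14.6 and 14.9 CPM in GS_diff1, 1.47, 1.79 and 1.42 CPM in GS, and 0.211, 0.359 and 0.615 CPM in RCF. The 4 groups stood apart in every library, in the order GS_diff2, GS_diff1, GS, RCF. The fold change was 58.4 for GS_diff2 against GS (log2 5.87 ± 0.118, SE) and 9.48 for GS_diff1 against GS (log2 3.24 ± 0.13). Between the media, Igf2 was 6.16-fold higher in GS_diff2 than in GS_diff1. The 3.95-fold difference between GS and RCF rested on 5 to 13 counts per RCF library, and the counting error there is large.

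Igf2r, the receptor that removes Igf2, was lower in every GS-derived group than in RCF. It was at 1053 ± 6.63 CPM in GS_diff2, 1065 ± 6.01 CPM in GS_diff1, 933 ± 71.4 CPM in GS and 2135 ± 23.7 CPM in RCF. In GS it stood 2.29-fold below RCF (log2 −1.19 ± 0.0363), and it was slightly higher than in GS after both media (log2 0.17 ± 0.036 in GS_diff2 and 0.19 ± 0.036 in GS_diff1). Its GS_diff2 and GS_diff1 libraries overlapped. Grb10 encodes an adaptor that binds the insulin and insulin-like growth factor receptors and dampens their signal. It was at 511, 519.7 and 513 CPM in GS_diff2, 1063, 1059 and 1036 CPM in GS_diff1, 968, 946 and 949 CPM in GS, and 218, 211 and 216 CPM in RCF. Grb10 was thus 4.45-fold higher in GS than in RCF (log2 2.15 ± 0.0272). It was 1.86-fold lower in GS_diff2 than in GS, and 1.10-fold higher in GS_diff1 than in GS.

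Mir675 differed from Igf2 in which medium gave the higher level. It was at 68.1, 61.8 and 65.9 CPM in GS_diff2, 549, 531 and 616 CPM in GS_diff1, 38.5, 37.4 and 38.6 CPM in GS, and 0 counts in all 3 RCF libraries. Set against the level that 3 counts per RCF library would give, it was at least 464-fold higher in GS_diff2, 4012-fold higher in GS_diff1 and 271-fold higher in GS. No library of any group overlapped with another group. Mir675 was 8.66-fold lower in GS_diff2 than in GS_diff1 (log2 −3.11 ± 0.0522) and 1.71-fold higher in GS_diff2 than in GS (log2 0.77 ± 0.0576).

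Igf2 counts exceeded those of its neighbour Mir675 in GS_diff2, and the reverse held in GS_diff1 and GS. There were 1.35, 1.45 and 1.4 Igf2 counts per Mir675 count in the GS_diff2 libraries. In GS_diff1 there were 36.7, 36.3 and 41.3 Mir675 counts per Igf2 count, and in GS 26.2, 20.8 and 27.3. The genes differ in length, so that these ratios compare libraries and not the abundance of the transcripts. In RCF the ratio cannot be formed.

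**Figure D2:**
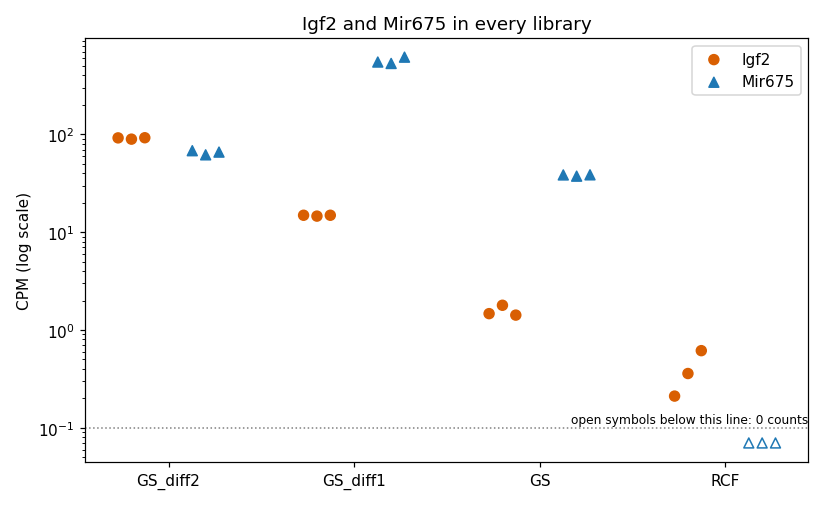
Level of Igf2 and Mir675 in every library in CPM on a log axis (y axis) for GS_diff2, GS_diff1, GS and RCF (x axis); each point is 1 library. Igf2 lies above Mir675 only in GS_diff2 among the groups with counts for both, and the open triangles under the dotted line stand for 0 counts of Mir675 in RCF, which a log axis cannot show.

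The growth restrainers Cdkn1c and Phlda2 were nearly silent in fibroblasts. Cdkn1c encodes a protein that blocks cyclin-dependent kinases and stops the cell cycle. It was at 124, 118 and 121 CPM in GS_diff2, 130, 134 and 146 CPM in GS_diff1, 219, 201 and 221 CPM in GS, and had 1 count in each RCF library. The ratio of summed, library-scaled counts to RCF was 2594 in GS_diff2 (exact 95% counting interval 887 to 12583), 2916 in GS_diff1 (997 to 14142) and 4589 in GS (1569.8 to 22255). These intervals cover counting error only. Cdkn1c was lower after both media than in undifferentiated GS cells, by 1.76-fold in GS_diff2 (log2 −0.82 ± 0.0439) and 1.57-fold in GS_diff1 (log2 −0.65 ± 0.0437).

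Phlda2 encodes a pleckstrin homology domain protein that limits placental growth in the mouse. Its level was 27.2, 26.4 and 29.6 CPM in GS_diff2, 82.0, 78.6 and 82.9 CPM in GS_diff1, 53.5, 47.0 and 53.2 CPM in GS, and 0.591, 0.565 and 0.237 CPM in RCF. The groups did not overlap. Against GS, Phlda2 was 1.85-fold lower in GS_diff2 and 1.58-fold higher in GS_diff1, whereas Cdkn1c, its neighbour, was lower in both. In GS it was 108-fold higher than in RCF (log2 6.76 ± 0.135), from 5 to 14 counts per RCF library.

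Plagl1 encodes a zinc finger transcription factor that arrests the cell cycle when overexpressed in cultured cells. It was at 17.0 ± 1.08 CPM in GS_diff2, 19.6 ± 1.18 CPM in GS_diff1, 15.4 ± 0.456 CPM in GS and 0.758 ± 0.226 CPM in RCF. It was 20.4-fold higher in GS than in RCF and differed little among the GS-derived groups, with a log2 difference of 0.15 ± 0.119 for GS_diff2 and 0.35 ± 0.119 for GS_diff1 against GS.

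Peg3, a large zinc finger protein, was at 33.6, 33.9 and 33.6 CPM in GS_diff2, 214, 212 and 221 CPM in GS_diff1, 185, 208 and 173 CPM in GS, and 29.9, 32.5 and 31.7 CPM in RCF. It was 6.02-fold higher in GS than in RCF (log2 2.59 ± 0.0549). In GS_diff2 it was 6.39-fold lower than in GS_diff1 (log2 −2.68 ± 0.0545) and close to the fibroblast level (log2 0.11 ± 0.0603 against RCF).

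Ndn encodes necdin, a protein of postmitotic neurons that binds E2F factors. It was at 6.79, 5.26 and 7.0 CPM in GS_diff2, 14.3, 14.6 and 12.3 CPM in GS_diff1, 8.17, 7.64 and 7.66 CPM in GS, and 43.8, 46.6 and 44.2 CPM in RCF. In GS it stood 5.73-fold below RCF (log2 −2.52 ± 0.106) and 1.76-fold higher in GS_diff1 than in GS (log2 0.81 ± 0.109). GS_diff2 and GS lay close, with a log2 difference of −0.31 ± 0.115. Without GS replicate 1 it was −0.28, and without GS_diff2 replicate 2 it was −0.18, both short of the threshold. Mest encodes an enzyme of the alpha/beta hydrolase fold that is known as a marker of mesoderm in the mouse. It was low everywhere, at 1.14 ± 0.448 CPM in GS_diff2, 1.18 ± 0.235 CPM in GS_diff1, 1.07 ± 0.478 CPM in GS and 2.72 ± 0.314 CPM in RCF. The 3 GS-derived groups overlapped, and all lay below RCF, by 2.57-fold in GS (log2 −1.36 ± 0.366).

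The media are best compared with each other, gene by gene. In GS_diff2 against GS_diff1, only Igf2 of the 10 genes was higher without overlap of the libraries. Grb10, Mir675, Cdkn1c, Phlda2, Plagl1, Peg3 and Ndn were lower without overlap, as 33.8% of all genes were, and Igf2r and Mest overlapped. By the threshold 1 of the 10 passed as higher and 6 as lower, where 32.1% of all genes rose and 31.5% fell (63.7% passed). In GS_diff1 against GS, 8 passed as higher and 1 as lower, where 32.0% of all genes rose and 32.3% fell (64.3% passed). In GS_diff2 against GS, 3 passed as higher and 5 as lower, where 33.3% of all genes rose and 33.7% fell (67.0% passed). The comparisons with GS share the GS libraries. As the levels chose the genes, nothing is read from these counts.

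**Figure D3:**
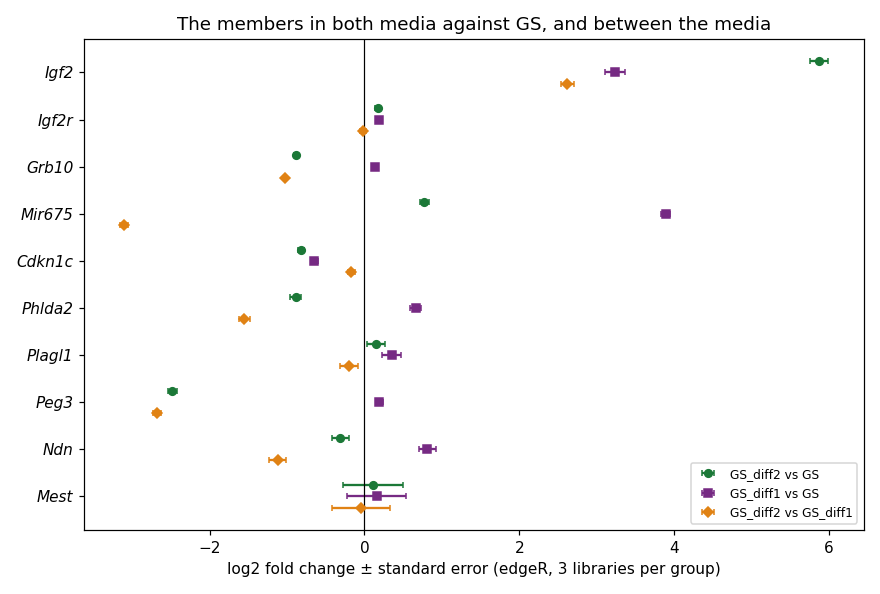
Log2 fold change with its standard error (x axis) of each of the 10 imprinted genes (y axis) for GS_diff2 against GS, GS_diff1 against GS and GS_diff2 against GS_diff1, each from 3 libraries per group. Grb10, Phlda2, Peg3 and Ndn lie on opposite sides of 0 in the comparisons of the media with GS, and Igf2 alone is clearly to the right of 0 for GS_diff2 against GS_diff1, at 2.62.

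The genes were also counted by the parental copy expressed in the mouse. In GS against RCF, 4 of the 5 maternally expressed and 3 of the 5 paternally expressed genes were higher without overlap, with 36.0% of all genes higher in this way. In GS_diff2 against GS_diff1, 4 of the 5 maternally expressed and 3 of the 5 paternally expressed genes were lower without overlap, with 33.8% of all genes lower in this way. Nothing is read from these counts.

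Levels of different genes can be set beside each other only per length, as CPM per kilobase of the annotated transcript length, and Mir675 is left out because its reads can come from H19. In GS_diff2 the order was Igf2r at 119.8, Grb10 at 98.6, Cdkn1c at 59.4, Phlda2 at 30.2 and Igf2 at 16.2, with Peg3, Ndn, Plagl1 and Mest at 1.14 to 3.99. Peg3 at 3.99, Ndn at 3.98 and Plagl1 at 3.67 were neighbours in that order and are not told apart. In RCF, Igf2r led and Cdkn1c was last of those with counts. Igf2 thus stood above Peg3 per length in GS_diff2 only, and Grb10 stood above Igf2r per length in GS_diff1 and GS.

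Promoter sequences in the RefSeq table (GRCr8, 250 bases before to 50 after a start) matched 8 of the 10 genes, with 9 windows. Cdkn1c and Mir675 had none. They held 7 to 44 CG dinucleotides, the bases at which imprints are laid down as methylation, against quartiles of 3, 7 and 19 over 33469 rat promoters. Both Igf2 windows are printed with CG in capitals because Igf2 had the largest fold change of the 10 genes in GS_diff2 against GS. The upstream window lies at chr1:207253931-207254230 and holds 19 CG, and the downstream one at chr1:207250426-207250725 holds 7, both on the minus strand.
Igf2 promoter 1: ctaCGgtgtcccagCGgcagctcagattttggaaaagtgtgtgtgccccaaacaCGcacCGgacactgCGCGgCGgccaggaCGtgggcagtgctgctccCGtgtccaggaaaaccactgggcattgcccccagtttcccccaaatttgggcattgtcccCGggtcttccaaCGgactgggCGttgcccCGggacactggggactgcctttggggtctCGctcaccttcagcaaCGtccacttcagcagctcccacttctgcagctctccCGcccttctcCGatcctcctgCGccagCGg
Igf2 promoter 2: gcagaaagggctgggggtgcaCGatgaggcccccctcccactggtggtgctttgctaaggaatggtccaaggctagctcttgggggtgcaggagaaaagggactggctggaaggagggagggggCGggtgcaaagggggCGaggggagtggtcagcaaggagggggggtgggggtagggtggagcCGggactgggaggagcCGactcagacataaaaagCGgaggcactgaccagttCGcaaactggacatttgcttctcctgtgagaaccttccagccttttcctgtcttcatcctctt
AGATAA and TGATAA, forms of the GATA motif, were searched on both strands and were found in 0 of 9 windows, with 18.9% of all promoters holding either. The motif AATATT, an AT-rich sequence of the kind Sall4 is known to bind, was in 0 of 9 windows and in 8.0% of all promoters. The 9 windows were 57.3 to 79.7% GC, against quartiles of 44.7, 51.7 and 60.3% over all promoters. The promoters were not matched for GC, so that the shares do not compare like windows. GGGGCCCC, a sequence that Plagl1 is known to bind, was in 1 of 9 windows and in 0.9% of all promoters. It lay in the Peg3 window at chr1:76130744-76131043 on the plus strand, shown with the motif in capitals.
Peg3 promoter: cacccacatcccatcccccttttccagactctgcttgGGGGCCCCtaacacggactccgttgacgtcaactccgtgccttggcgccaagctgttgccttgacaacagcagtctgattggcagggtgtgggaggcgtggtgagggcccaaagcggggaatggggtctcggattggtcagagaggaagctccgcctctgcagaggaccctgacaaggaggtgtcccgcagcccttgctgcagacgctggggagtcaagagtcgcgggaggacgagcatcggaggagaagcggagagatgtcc
A match of letters is a description and not a site of binding, and the absence of a match says only that these letters are not in the window.

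Other imprinted genes did not lean one way in GS against RCF. Of 70 further genes listed as imprinted in the mouse, 59 were in the table and 45 were tested. Whether they are imprinted in these rat cells was not tested. In GS against RCF, 17 rose and 17 fell at an adjusted p under 0.05 (edgeR), where 35.0% of all genes rose and 36.3% fell, and the list's median log2 fold change was −0.03, as over all genes. Ano1, a calcium-activated chloride channel, rose to 23.7 ± 2.25 CPM in GS, against 0.744 ± 0.0701 CPM in RCF (adjusted p = 4.51e-24). Dcn, a matrix proteoglycan that is also on the fibroblast marker list, fell to 1.0 ± 0.533 CPM in GS, against 32.8 ± 1.55 CPM in RCF (adjusted p = 8.7e-07). Htr2a, a serotonin receptor, rose 3.44-fold and Pon2, a lactonase, fell 3.05-fold in GS against RCF.

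The same 45 genes were compared in the media. In GS_diff1 against GS, 12 rose and 25 fell, where 32.0% of all genes rose and 32.3% fell (median log2 fold change −0.26, against 0 over all genes). Htr2a fell to 1.34 ± 0.428 CPM in GS_diff1, against 32.9 ± 1.19 CPM in GS (edgeR adjusted p = 1.06e-19), and Qpct, glutaminyl cyclase, fell 7.0-fold. In GS_diff2 against GS, 14 rose and 15 fell, where 33.3% of all genes rose and 33.7% fell, with Cobl falling 2.77-fold and Blcap 2.5-fold. In GS_diff2 against GS_diff1, 20 rose and 13 fell, where 32.1% rose and 31.5% fell. Ampd3, an AMP deaminase, rose 10.8-fold in that comparison (adjusted p = 2.9e-13) and Peg12 fell 2.04-fold.

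**Figure D4:**
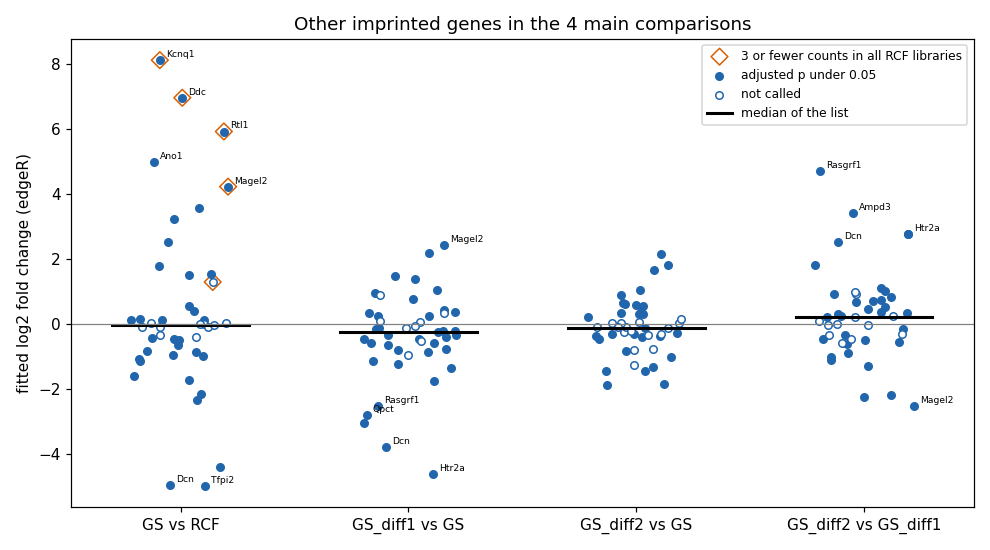
Fitted log2 fold change from edgeR (y axis) of 45 other imprinted genes in the 4 main comparisons (x axis); filled points passed an adjusted p of 0.05, open points did not, and black lines are the list's medians. Diamonds mark genes with 3 or fewer counts over all RCF libraries, such as Kcnq1, Ddc, Rtl1 and Magel2, whose fitted values against RCF are not bounds; the medians lie at −0.03, −0.26, −0.14 and 0.22 from left to right.

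The imprinted Dlk1-Meg3 cluster holds a large set of microRNA genes and Rtl1, and these had few counts. Meg3, Rian, Mirg and Dio3 were not found by symbol or other name among the counted genes, so that no level can be given for them. Of 31 microRNA genes of imprinted clusters in the table, 2 were tested, Mir770 and Mir410. Mir770 was at 3.79, 2.32 and 2.82 CPM in GS_diff2, 1.09, 0.706 and 0.811 CPM in GS_diff1, 1.51, 1.62 and 1.61 CPM in GS, and 0 counts in RCF. Against 3 counts per RCF library it was at least 21.1-fold higher in GS_diff2, 6.18-fold higher in GS_diff1 and 11.2-fold higher in GS. It was higher in GS_diff2 than in GS_diff1 (log2 1.76 ± 0.36, edgeR adjusted p = 0.000108), opposite to Mir675. Mir410 was at 1.04 to 1.58 CPM in GS_diff2, 0.696 to 1.16 CPM in GS_diff1, 0.579 to 0.734 CPM in GS and 0 counts in RCF. Rtl1, a gene of retrotransposon origin needed in the mouse placenta, was named after its values were seen. It was likewise at 0 counts in RCF and at 0.258 to 1.4 CPM in the GS-derived libraries. Begain, listed as imprinted and on the same chromosome, went the other way, averaging 2.84 CPM in RCF and 0.49 to 1.08 CPM in the GS-derived groups. Dlk1 itself was too low to be tested, with 13 counts over the RCF libraries and 2, 0 and 1 in GS, GS_diff1 and GS_diff2. The arms of Mir770 and Mir410 are printed beside those of Mir675 with the seed in capitals (RefSeq, GRCr8, plus strand). They lie at chr6:134298094-134298115 and chr6:134298129-134298145 for Mir770 and chr6:134579773-134579793 and chr6:134579808-134579828 for Mir410.
rno-miR-770-5p: aGCACCACgugucugggccacg
rno-miR-770-3p: gUGGGCCUgacguggag
rno-miR-410-5p: aGGUUGUCugugaugaguucg
rno-miR-410-3p: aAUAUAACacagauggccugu
None of the 4 seeds was that of a Mir675 arm. Reads over these short genes can also come from the host transcripts.

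Further genes of the insulin-like growth factor system were set beside the 10. Of 27 listed, 23 were tested, and 13 rose and 7 fell in GS against RCF, where 35.0% of all genes rose and 36.3% fell. Their median log2 fold change was 0.56, against −0.03 over all genes. Igf1, the sister ligand, averaged 13.5 CPM in GS and 277 CPM in RCF, 20.3-fold lower (edgeR adjusted p = 3e-28). Its receptor gene Igf1r, which also transmits the Igf2 signal, averaged 35.0 CPM in GS and 33.2 CPM in RCF (adjusted p = 0.352). Igfbp2, a binding protein for the ligands, rose to 468 ± 22.4 CPM in GS, against 2.9 ± 0.629 CPM in RCF (adjusted p = 3.2e-33). Igfbp5 and Igfbp6 fell 70.4-fold and 35.9-fold. Igf2bp1, an RNA-binding protein of fetal tissues named for binding Igf2 transcripts, had 3 counts over the RCF libraries, and its ratio of summed counts for GS was 1409 (exact 95% counting interval 482 to 6835).

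The media were compared for the same list. Hmga2, a chromatin protein of embryonic cells that promotes transcription of Igf2bp2 in mouse myoblasts, rose to 47.8 ± 1.42 CPM in GS_diff2, against 2.58 ± 0.395 CPM in GS_diff1 (edgeR adjusted p = 1.57e-18). Its GS level was 1.21 ± 0.365 CPM. Igfbp2 fell to 39.1 ± 1.04 CPM in GS_diff2, against 202 ± 4.91 CPM in GS_diff1 (adjusted p = 5.75e-25), and Pappa, a protease that cleaves binding proteins of the family, fell 4.64-fold. Igfbp4 rose 3.19-fold in the same comparison. Of the 23 genes tested, 9 rose and 10 fell in GS_diff2 against GS_diff1, where 32.1% of all genes rose and 31.5% fell (median 0.05). In GS_diff1 against GS, 6 rose and 15 fell, where 32.0% of all genes rose and 32.3% fell (median −0.49). In GS_diff2 against GS, 8 rose and 14 fell, where 33.3% of all genes rose and 33.7% fell (median −0.31).

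Genes of the cell cycle machinery that Cdkn1c acts on or belongs to were measured beside it: cyclins, cyclin-dependent kinases, their inhibitors, and the E2f and retinoblastoma families. Of 23 tested, 10 rose and 6 fell in GS against RCF, where 35.0% of all genes rose and 36.3% fell, with a median log2 fold change of 0.24. In GS_diff1 against GS, 8 rose and 8 fell, where 32.0% of all genes rose and 32.3% fell, with a median of 0.05. In GS_diff2, 15 rose and 4 fell against GS (33.3% and 33.7% of all genes, median 0.99), and 14 rose and 4 fell against GS_diff1 (32.1% and 31.5% of all genes, median 0.54). Ccnd1, cyclin D1 of early G1 phase, was at 2867 ± 14.8 CPM in GS_diff2, 377 ± 0.245 CPM in GS_diff1, 606 ± 15.0 CPM in GS and 99.4 ± 1.33 CPM in RCF. It rose 4.73-fold in GS_diff2 against GS (edgeR adjusted p = 4.46e-33). Cdk1, the kinase of mitotic entry, rose 4.49-fold in GS_diff2 and 3.1-fold in GS_diff1 against GS, while Cdkn1c was lower in both. Cdkn1b, an inhibitor of the same family as Cdkn1c, rose to 129 ± 5.53 CPM in GS, against 60.8 ± 1.76 CPM in RCF (adjusted p = 3.1e-18), a 2.11-fold change. Cdkn2a and Cdkn2b, inhibitors of the cyclin D kinases, rose 4.76-fold and 3.44-fold in GS_diff2 against GS_diff1.

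Genes that lay down, keep or read imprints were tested as another list. Of 22 tested, 15 rose and 4 fell in GS against RCF, where 35.0% of all genes rose and 36.3% fell (median log2 fold change of the list 0.24). In GS_diff1 against GS, 15 rose and 2 fell, where 32.0% of all genes rose and 32.3% fell (median 0.31). In GS_diff2, 6 rose and 7 fell against GS (33.3% and 33.7% of all genes, median −0.01), and 6 rose and 13 fell against GS_diff1 (32.1% and 31.5% of all genes, median −0.27). Dnmt3b, a de novo DNA methyltransferase, was at 5.85 ± 1.49 CPM in GS_diff2, 43.8 ± 3.27 CPM in GS_diff1, 13.3 ± 1.84 CPM in GS and 1.22 ± 0.295 CPM in RCF. It fell 7.5-fold in GS_diff2 against GS_diff1 (edgeR adjusted p = 7.51e-14). Trim28, the corepressor that keeps imprints with KRAB zinc finger proteins, fell to 327 ± 5.06 CPM in GS_diff2, against 679 ± 7.92 CPM in GS_diff1 (adjusted p = 3.64e-23). Uhrf1 and Dnmt1, which copy methylation after replication, rose 3.57-fold and 2.21-fold in GS_diff2 against GS and 2.51-fold and 2.16-fold in GS_diff1 against GS. Methylation itself was not measured.

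Genes beside the members were examined within 250 kb, since imprinted genes lie in clusters. Of 83 neighbours, 35 were tested, and 16 rose, 5 fell and 14 were not called in GS against RCF, where 35.0% of all genes rose and 36.3% fell. Their median log2 fold change was 0.25, against −0.03 over all genes. Beside Cdkn1c, Kcnq1, a potassium channel gene listed as imprinted in the mouse, had 1 count over the RCF libraries and 6.15 ± 0.873 CPM in GS. Its ratio of summed counts was 392 (exact 95% counting interval 69.9 to 15532, edgeR adjusted p = 4.98e-16). Strand use in counting is not given, so that reads of its antisense RNA Kcnq1ot1 may be included. Slc22a18, a transporter gene between Cdkn1c and Phlda2 and 1.7 kb from Phlda2, averaged 12.9 CPM in GS and 13.7 CPM in RCF (log2 −0.09 ± 0.125, adjusted p = 0.537). The gene between the pair therefore did not pass the test where its neighbours on either side differed widely, and the difference between them was not tested.

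At the other loci, tested genes within 250 kb varied, and most of those named were picked for a large change and not for distance. Ddc, a decarboxylase gene listed as imprinted in the mouse, lies 25.1 kb from Grb10. It had 2 counts over the RCF libraries and 4.69 ± 0.228 CPM in GS. Its ratio of summed counts was 151 (exact 95% counting interval 41.5 to 1256). Fignl1, on the far side of Ddc, rose 4.76-fold in GS against RCF (edgeR adjusted p = 6.58e-13). Near Igf2 and Mir675, Lsp1 rose 2.92-fold, Ifitm10 2.61-fold and Mrpl23 1.49-fold in GS against RCF. Acat2, near Igf2r, fell 4.25-fold in GS against RCF (edgeR adjusted p = 1.17e-08). Magel2, a paralogue and neighbour of Ndn at 32.4 kb, had 1 count over the RCF libraries. It averaged 0.385 CPM in GS_diff2, 2.22 CPM in GS_diff1 and 0.408 CPM in GS. Magel2 and Ndn were both higher in GS_diff1 than in the other GS-derived groups, and against RCF they lay on opposite sides. Beside Plagl1, Stx11 fell 1.95-fold and Ltv1 rose 1.87-fold in GS against RCF. Beside Mest, Cep41 and Tmem209 rose 1.53-fold and 1.5-fold. Copg2, nearer to Mest at 1.7 kb, was not called in GS against RCF (log2 −0.1 ± 0.0627, edgeR adjusted p = 0.144). Usp29 and Zim1, tested beside Peg3, were not called in GS against RCF.

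**Figure D5:**
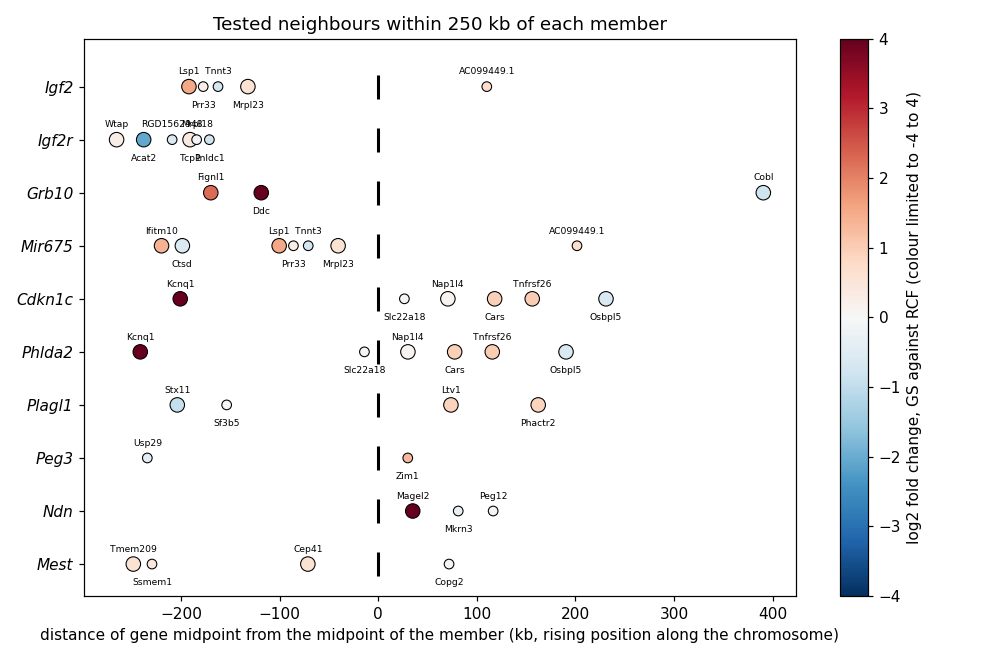
Tested genes within 250 kb of each of the 10 imprinted genes (y axis) at the distance between gene midpoints in kb (x axis, black bar at 0 for the gene itself), coloured by the log2 fold change of GS against RCF, with colours limited to −4 to 4. Larger circles passed an adjusted p of 0.05; Kcnq1 and Ddc stand out beside Cdkn1c and Grb10, and Slc22a18 between Cdkn1c and Phlda2 is near 0.

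Genes whose levels followed those of a member most closely over the 12 libraries were sought among 10337 genes by Pearson correlation of log2 CPM. The 12 libraries fall into 4 groups, so that a correlation mostly compares 4 levels, and it is a description. It also takes no account of the size of a change. Igf2 was nearest to Dlgap5 (r = 0.994), Gpsm2 (0.993) and Cdca8 (0.991), genes of the mitotic spindle. Mir675 was nearest to Krt8 (0.999), a keratin of simple epithelia, and to Wnt7a and Mybpc3 (0.998 each). Cdkn1c was nearest to Sox17, H2afz and Esrp1, and Plagl1 to Myo5b, Cdh1 and Srd5a1. H2afz averaged 331 CPM in GS and 107 CPM in RCF, where Cdkn1c averaged 214 and 0.047 CPM. Grb10 was nearest to Grb14 (0.998), its paralogue, which was at 46.2 CPM in GS_diff2, 249.8 CPM in GS_diff1, 171 CPM in GS and 8.68 CPM in RCF. Phlda2 was nearest to Emb and Cmtm8 (0.997 each), Peg3 to Tars (0.995), Ndn to Adam19 and Parm1 (0.993 each) and Igf2r to Adam10 (0.996). Mest, with few counts, had no gene above 0.918.

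Markers of other cell types differed between the same groups. Of 8 epithelial and mesothelial markers, 7 reached 1 CPM in GS_diff2, GS_diff1 and GS and 3 in RCF. Their sum was 803 to 822 CPM in GS_diff2, 2271 to 2294 in GS_diff1, 631 to 652 in GS and 43.7 to 46.4 in RCF. Krt18 was at 0 in RCF and Upk3b at 0 in GS_diff2. In the GS-derived groups Krt8, Krt18 and Cdh1 made up most of the sum. In GS against RCF, 6 of the 8 rose and 2 fell at an adjusted p under 0.05 in edgeR. Over all genes 35.0% rose and 36.3% fell. The 2 that fell, Wt1 and Upk3b, were highest in RCF, at 37.2 and 3.54 CPM, against 7.0 and 0.51 CPM in GS. Of 9 endoderm and liver markers, 4 reached 1 CPM in the GS-derived groups and 1 in RCF. Their sum was 357 to 385 CPM in GS_diff2, 538 to 549.6 in GS_diff1, 835 to 861 in GS and 18.7 to 20.4 in RCF, of which Sox17 made up most in GS, while Alb was at 0 in GS, GS_diff1 and RCF. The other endoderm markers that reached 1 CPM, Foxa2, Hnf4a and Cldn6, were highest in GS_diff1, at 81.7, 26.1 and 105 CPM, against 60.9, 1.85 and 79.3 CPM in GS. Leukocyte markers summed to 35.7 to 37.1 CPM in RCF and to at most 4.86 CPM in the other groups. The part of these cell types in the levels of the 10 genes was not tested, and in bulk RNA fewer cells of a type and less RNA per cell cannot be told apart.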

How the data were processed

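Total RNA of 12 cultures was sequenced from libraries made with the Ovation RNA-seq System kit, per the labels' protocols. The authors deposited 1 table of raw read counts per gene, with gene positions and lengths. Bowtie 0.12.2 and the builds Rnor_6.0 and mm8 are named in the submitters' processing notes, while the sources used here do not say what mm8 was for, which tool counted reads, or whether it used strand. From the deposited counts, edgeR 4.0.16 (R 4.3.3) was run with its filter on low counts, TMM scaling and a robust quasi-likelihood fit of all 4 groups in 1 model. P-values were adjusted by Benjamini-Hochberg over 14399 genes with a threshold of 0.05. Standard errors are those of the log2 fold change.

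The model was tested on simulated data. DESeq2 1.42.0, limma 3.58.1 and other filters, scalings and sample choices were tried as alternatives. The 10 genes, the gene lists and the marker lists were chosen with earlier results of these data known. From each of 4 lists of related genes and in each main comparison, up to 4 called genes were eligible to be named: those with the largest change among genes at 10 CPM or more whose groups did not overlap. Per member, up to 2 called neighbours within 250 kb and the 3 most correlated genes were eligible, and microRNA genes of imprinted clusters at 1 CPM or more. Igf1, Igf1r, Slc22a18, Usp29, Zim1, Rtl1, Copg2, Begain, Dlk1, Cdkn1a and Cdkn2c were named after their values were seen. Of the genes near Igf2r, 1 is not reported here and is in no count of neighbours.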

Additional observations from a re-analysis of the deposited data

Results flagged for a closer look

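Several genes named above lay on opposite sides of GS in the media. For 4 of the 10 imprinted genes the difference was not tested, since their levels chose them. Log2 fold changes against GS were −0.89 in GS_diff2 and 0.14 in GS_diff1 for Grb10, −0.31 and 0.81 for Ndn, −2.48 and 0.19 for Peg3, and −0.89 and 0.66 for Phlda2, in the same order of groups.

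For other genes, both changes against GS and the difference between the media passed an adjusted p of 0.05 in edgeR. Among imprinted genes, the log2 fold change against GS was 1.67 in GS_diff2 and −1.76 in GS_diff1 for Ampd3 (adjusted p between the media 2.9e-13). In the same order it was 0.63 and −0.4 for Ano1 (2.25e-11), 0.57 and −0.36 for Commd1 (4.81e-11), 0.56 and −0.26 for Pon2 (5.31e-15) and 0.91 and −0.85 for Mir770 (0.000108). For the cell cycle genes it was 2.24 and −0.68 for Ccnd1 (1.47e-35) and 1.16 and −0.62 for Cdkn2b (1.94e-23). The imprint genes went the other way, with −1.19 and 1.72 for Dnmt3b (7.51e-14) and −0.26 and 0.8 for Trim28 (3.64e-23). It was −0.28 and 1.08 for Igf2bp1 (2.21e-19). Of the neighbours, Lsp1 had 0.43 and −0.8 (3.21e-11) and Ltv1 had −0.69 and 0.33 (3.28e-15).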

How the results depend on the processing

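Counts of genes called were compared for all genes, for the 10 imprinted genes and for the other imprinted genes. All stayed within 1.5 times the reported count under the alternatives run. With most genes called, a count could hardly rise past that bound, so that it could show little but a fall. The number of the 10 genes called was 10 in GS against RCF, 9 in GS_diff1 against GS, 7 to 8 in GS_diff2 against GS and 7 to 8 in GS_diff2 against GS_diff1. Leaving out 1 replicate at a time gave 10, 9, 7 to 8 and 7. As the levels chose the 10 genes, nothing is read from their calls. Igf2r in GS_diff2 against GS_diff1 turned to 0.01 with library totals as the only scaling, from a reported −0.02 that was not called. Ndn in GS_diff2 against GS lost its call at −0.22 with library totals, −0.33 with limma-voom and −0.3 with only both groups in the fit, besides the 2 libraries named above, and Plagl1 in GS_diff2 against GS_diff1 gained one at −0.21 with limma-voom. Mest, called in none of these comparisons, changed sign when a replicate was left out: from −0.08 to 0.57 for GS_diff1 against GS (0 without GS_diff1 replicate 1), from −0.18 to 0.5 for GS_diff2 against GS (−0.14 without GS replicate 1) and from −0.34 to 0.21 between the media (0.11 without GS_diff1 replicate 1). The cause was not tested. Mest had 13 to 30 counts per GS-derived library, which limits its precision.

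The labels number the replicates 1 to 3 in each group. Same-numbered libraries did not deviate together, with 0 of 18 pairs correlated above 0.1 (r from −0.037 to 0.056), so that the numbers are not taken as pairs. With a replicate block, 10166 genes were called in GS against RCF, 9135 in GS_diff1 against GS, 9538 in GS_diff2 against GS and 9054 in GS_diff2 against GS_diff1, against 10262, 9256, 9651 and 9167 without it. No call of the 10 genes changed direction under the block.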

Other observations

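Marker sums of the remaining cell types also differed between groups, and their part in the levels of the imprinted genes was not tested. All 7 smooth muscle markers reached 1 CPM in GS_diff2, GS_diff1 and GS, and 6 did in RCF. Their sum was 399.9 to 406 CPM in GS_diff2, 2527 to 2577 in GS_diff1, 610.3 to 640.2 in GS and 798 to 817 in RCF. Of 7 skeletal muscle markers, 3 reached 1 CPM in the GS-derived groups and 1 in RCF, with Myog at 0 in every group. Their sum was 51.4 to 52.0 CPM in GS_diff2, 74.9 to 75.6 in GS_diff1, 22.7 to 25.9 in GS and 0.946 to 1.73 in RCF. Neural and glial markers, 7 in number, summed to 15.4 to 16.4 CPM in GS_diff2, 11.9 to 15.1 in GS_diff1, 23.3 to 26.4 in GS and 67.2 to 67.3 in RCF. Tubb3 made up 59.3 CPM of the RCF sum, while S100b averaged 11.2 CPM in GS and 4.32 CPM in RCF. Fibroblast markers summed to 48479.5 to 49206 CPM in GS_diff2, 65871 to 67437 in GS_diff1, 74639.8 to 75904 in GS and 49738 to 52706 in RCF. Col1a1, Fn1 and Col3a1 made up most of each sum, which hides the single markers that rose or fell against RCF, as given above.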
